A study of Homo sapiens with 8 samples.

Results

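Cadherins, protocadherins, catenins and claudins were followed in human embryonic stem cells grown with or without bFGF and IL-11. Members were the probes of an Illumina human-8 BeadChip whose gene symbol names a numbered cadherin (CDH), a protocadherin (PCDH), an alpha, beta or delta catenin (CTNNA, CTNNB, CTNND) or a numbered claudin (CLDN) in the platform annotation. The rule by symbol also takes in CTNNAL1, an alpha-catenin-like protein, CTNNBIP1, an inhibitor of β-catenin, and CTNNBL1, a protein of the splicing machinery. Of 24526 probes on the array, 171 probes of 116 genes were members. A probe was kept when at least 1 condition had both its arrays below 0.01 in the authors' detection p-value, which sets a probe against the negative control beads. This left 40 member probes of 37 genes, out of 11668 probes over the whole array, of which the named ones stand for 9269 genes.

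Cadherins are transmembrane proteins that bind the same kind of cadherin on a neighbouring cell, in a calcium-dependent way. Inside the cell they hold β- and p120-catenin, and α-catenin links this complex to actin, while β-catenin also carries the WNT signal to the nucleus. Protocadherins lack the catenin-binding tail of the classical cadherins and are best known from the nervous system, and claudins are the strands of the tight junction that decide which ions and solutes pass between epithelial cells. Human embryonic stem cells grow as epithelial colonies held together by E-cadherin (CDH1), and the exchange of E-cadherin for N-cadherin (CDH2) is a known mark of cells that leave this state.

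The study asked whether IL-11, a cytokine of the IL-6 family, can stand in for bFGF (FGF2). All arrays are from cells on matrigel in N2B27 medium, without added factor (−bFGF), with bFGF at 24 ng/ml (+bFGF), with IL-11 at 10 ng/ml (+IL-11), or with both (+IL-11+bFGF), and the study's text gives 5 days. Each condition has 2 arrays, 8 in all, which limits the precision, and no source tells whether a pair is 2 cultures or 1. The p-values therefore cover the spread of these arrays alone, possibly only a technical spread. The labels name the line H1 and the study's text H9, each of them an established human line.

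The median intensity was 113 to 121 on the 8 arrays before normalization, and 10983 to 11761 probes per array were detected. Over all probes the squared correlation was 0.987 to 0.991 between the arrays of a condition and 0.968 to 0.994 between arrays of different conditions. All 9 markers of undifferentiated cells on the array were kept, among them POU5F1, NANOG and SOX2. Most markers listed for other cell types were kept too, 6 of 8 for neural crest and sensory neurons, 4 of 8 for neuroectoderm, 6 of 8 for fibroblast-like cells, and 5 of 7 each for trophectoderm and endoderm. Levels below are log2 intensities after background correction and quantile normalization. Changes come from a limma fit over all 8 arrays, with p-values adjusted by Benjamini-Hochberg over the 11668 probes and called at 0.05. Levels are compared between arrays for 1 probe, and the level of a probe is not read against that of another.

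The families differed in how many of their probes were detected. Of 12 catenin probes 7 were kept, of 26 claudin probes 11, of 28 cadherin probes 8, and of 105 protocadherin probes 14, or 23.4% of all member probes against 47.6% of the array. The clustered protocadherins, which neurons express in varying combinations as a surface code, were mostly undetected, with 1 of 28 probes kept in the alpha cluster, 4 of 18 in the beta cluster and 1 of 36 in the gamma cluster. Outside the clusters 8 of 23 were kept. Genes of a cluster are near copies of each other and can share exons, so a single probe may read more than 1 of them. Both probes of CTNND1, which encodes p120-catenin, and 1 of the 2 probes of CTNNB1 were not kept. Just inside the threshold, CDH15, CDH23, CDH24, PCDH20, PCDHA5 and PCDHB10 had 0.00647 as the higher of their 2 detection p-values in their best condition. Just outside it, CDH9, CLDN5, PCDH8 and a second probe each of CLDN18 and CTNNBIP1 had 0.0162.

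**Figure D1:**
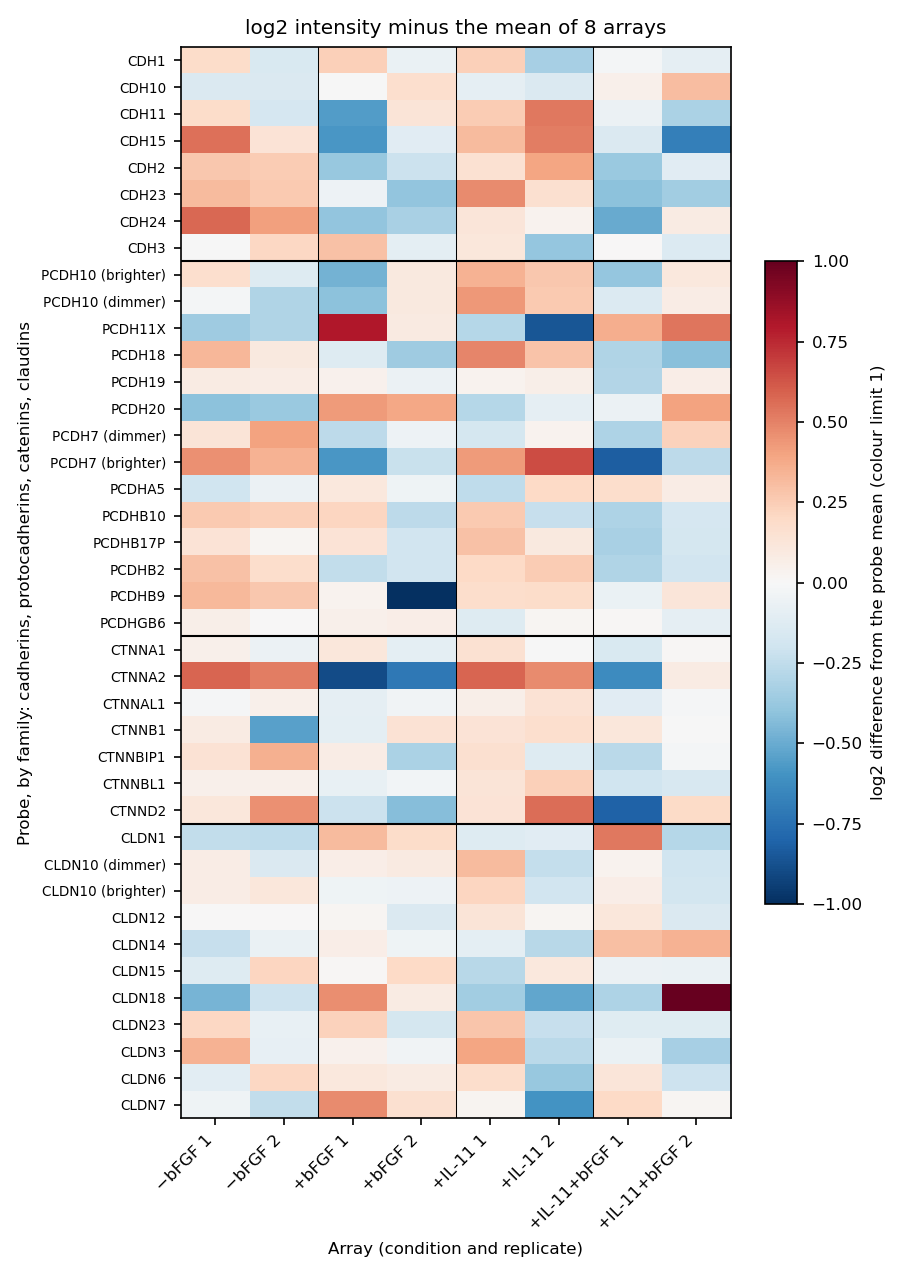
Each row is 1 of the 40 kept member probes and each column 1 of the 8 arrays; the colour is the log2 intensity minus the mean of that probe over all arrays, and black lines divide families and conditions. CTNNA2, CDH2, PCDH18, PCDHB2 and PCDH7 (brighter probe) are red on the 4 arrays without bFGF and at or below the mean on at least 3 of the 4 arrays with it, whereas no claudin row shows this split.

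The comparison of cells with and without bFGF gave most of the changes among these genes. Over the 4 arrays with bFGF and the 4 without, 13 of 40 member probes were called (32.5%), against 26.4% of all probes. Of these, 9 fell with bFGF (22.5%, against 13.1% of all probes) and 4 rose (10%, against 13.3%). The 9 are 4 cadherins (CDH2, CDH15, CDH23 and CDH24), 3 protocadherins (PCDH7, PCDH18 and PCDHB2) and 2 of the catenin group (CTNNA2 and CTNNBL1), and the 4 are 2 claudins (CLDN7 and CLDN14) and 2 protocadherins (PCDH11X and PCDH20). The median change of the members was -0.12 on the log2 scale, and that of all probes 0.00. Without replicate 2 of +IL-11, 8 members were called. Of the 40 probes, 9 were not detected on both arrays of every condition. The change of a probe kept only through the condition where it is high is in part set by the filter. The 31 detected on both arrays of all 4 conditions are therefore given too: 5 fell and 2 rose, against 12.2% and 12.8% of all such probes. Levels with and without bFGF did not overlap for 13 of the 40 probes, against 30.2% of all probes.

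CDH2 encodes N-cadherin, the classical cadherin of neural and mesenchymal cells. Its level was 13.68 and 13.67 on the −bFGF arrays, 13.56 and 13.81 on the +IL-11 arrays, 13.04 and 13.20 on the +bFGF arrays, and 13.04 and 13.31 on the +IL-11+bFGF arrays. All 4 arrays without bFGF were above all 4 with it, whether IL-11 was present or not. With bFGF the level was 1.45-fold lower (log2 fold change -0.54, SE 0.08, limma adjusted p = 0.00115).

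PCDH18 is a protocadherin outside the clusters. It read 11.15 and 10.92 without either factor and 11.30 and 11.10 with IL-11 alone, against 10.69 and 10.47 with bFGF alone and 10.52 and 10.40 with both. Its lowest array without bFGF was above its highest with it, a 1.52-fold fall (log2 fold change -0.60, SE 0.09, limma adjusted p = 0.000989). PCDHB2, a gene of the beta cluster, showed a tighter split, with 11.75 and 11.63 (−bFGF) and 11.66 and 11.72 (+IL-11) against 11.21 and 11.27 (+bFGF) and 11.16 and 11.26 (+IL-11+bFGF). The spread within each group of 4 arrays was small beside the gap between the groups, and the fall was 1.38-fold (-0.46, SE 0.06, limma adjusted p = 0.000642), with the reservation that near-identical genes of the cluster may share the probe.

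PCDH7 is another protocadherin outside the clusters and has 2 kept probes. The brighter of them (ILMN_1710544) read 8.85 and 8.74 (−bFGF), 8.82 and 9.04 (+IL-11), 7.81 and 8.17 (+bFGF), and 7.57 and 8.13 (+IL-11+bFGF). The groups did not overlap, and the level was 1.92-fold lower with bFGF (-0.94, SE 0.14, limma adjusted p = 0.00127). The dimmer probe (ILMN_1670383) lay between 6.51 and 7.22 on all arrays and gave -0.20 (95% interval -0.54 to 0.14, adjusted p = 0.378), so that the probes of PCDH7 disagreed.

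CTNNA2 encodes αN-catenin, the α-catenin of neurons. It was at 7.23 and 7.16 (−bFGF) and 7.23 and 7.12 (+IL-11), against 5.76 and 5.93 (+bFGF) and 6.02 and 6.73 (+IL-11+bFGF). All 4 arrays without bFGF detected it, and of the 4 with bFGF only replicate 2 of +IL-11+bFGF did. It was kept only through the conditions without bFGF, so its fall was in part set by the filter. The fit gave -1.08 (SE 0.16, limma adjusted p = 0.00132). Against +bFGF, where both arrays were below detection, −bFGF was at least 1.78-fold higher, a bound set by the lowest detected signal of those arrays.

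**Figure D2:**
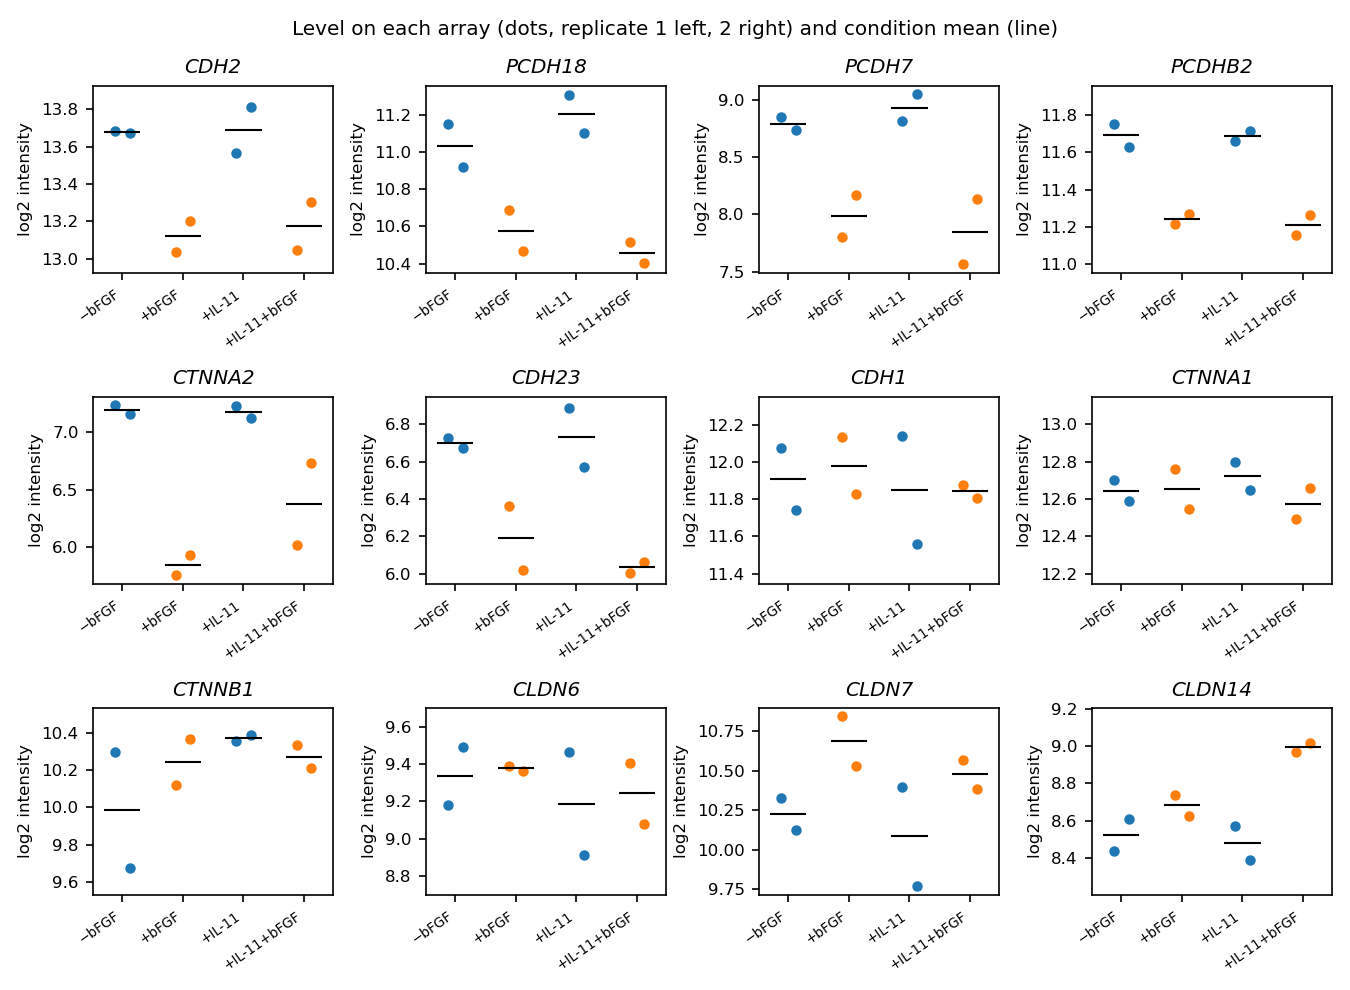
log2 intensity of 12 member genes on each of the 8 arrays by condition (dots, replicate 1 left and replicate 2 right; orange with bFGF, blue without), with the mean of each condition as a line; each panel has its own axis range. CDH2, PCDH18, PCDH7 (brighter probe), PCDHB2, CTNNA2 and CDH23 lie lower on every orange dot than on any blue dot, while CDH1, CTNNA1, CTNNB1 and CLDN6 overlap. CTNNA2 and CDH23 were kept only through the conditions without bFGF.

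Of the 13 members called with bFGF, CDH2, PCDH18, PCDHB2 and PCDH7 were called with the same sign in both comparisons that share no array, +bFGF against −bFGF and +IL-11+bFGF against +IL-11. The 2 tests are not independent, as both take their spread from the fit over all 8 arrays. The change by which the 13 were called is also the mean of the 2 changes. The promoters of these 4 genes are shown so that the stretch before each start can be read beside this common fall. Each is the 250 bases before the start of the gene, from RefSeq on GRCh38.p14, 5′ to 3′ on the strand of the gene, with CpG pairs in capitals.
CDH2, chr18:28177131-28177380, minus strand: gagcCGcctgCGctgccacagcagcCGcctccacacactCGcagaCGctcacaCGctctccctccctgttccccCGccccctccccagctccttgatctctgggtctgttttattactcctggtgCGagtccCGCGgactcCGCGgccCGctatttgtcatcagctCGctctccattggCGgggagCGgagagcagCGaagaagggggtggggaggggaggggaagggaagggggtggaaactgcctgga
PCDH18, chr4:137532495-137532744, minus strand: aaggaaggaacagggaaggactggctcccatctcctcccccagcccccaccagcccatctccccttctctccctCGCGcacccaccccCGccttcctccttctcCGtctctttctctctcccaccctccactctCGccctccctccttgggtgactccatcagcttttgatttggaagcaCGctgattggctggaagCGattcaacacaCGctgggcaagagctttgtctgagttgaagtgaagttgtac
PCDH7, chr4:30720119-30720368, plus strand: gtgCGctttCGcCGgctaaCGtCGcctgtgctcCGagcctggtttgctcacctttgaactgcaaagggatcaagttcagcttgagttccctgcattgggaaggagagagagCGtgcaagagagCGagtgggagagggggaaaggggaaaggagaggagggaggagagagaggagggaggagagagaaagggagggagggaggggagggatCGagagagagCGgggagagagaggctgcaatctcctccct
PCDHB2, chr5:141094365-141094614, plus strand: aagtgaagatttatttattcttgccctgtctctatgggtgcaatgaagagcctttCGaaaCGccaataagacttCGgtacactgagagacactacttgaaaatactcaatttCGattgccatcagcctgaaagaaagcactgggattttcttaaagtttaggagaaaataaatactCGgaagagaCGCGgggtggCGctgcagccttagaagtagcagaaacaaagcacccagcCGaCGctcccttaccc
These windows held 17, 8, 10 and 10 CpG pairs in this order, and the median over 27305 promoters of the same length was 11. The E-box CAGGTG, a known binding motif of the SNAI and ZEB repressors of E-cadherin, was searched on both strands, where the opposite strand reads CACCTG. It occurred in 2 of the 28 kept member genes with a promoter in the table (7.14%), CLDN18 and PCDHGB6, against 17.5% of all promoters, and in none of the 4 printed. No match says only that these letters are not in the window. The promoter of CDH1 was not analysed here.

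The other cadherins that fell were dim. CDH23, known from the tip links of hair cells in the inner ear, was at 6.73 and 6.67 (−bFGF), 6.89 and 6.57 (+IL-11), 6.36 and 6.02 (+bFGF), and 6.00 and 6.06 (+IL-11+bFGF). Its arrays did not overlap (-0.60, SE 0.14, limma adjusted p = 0.0104), and only 1 of the 4 arrays with bFGF detected it. As it was kept only through the conditions without bFGF, this split was in part set by the filter. CDH15, the M-cadherin of muscle, was kept only through its 2 +IL-11 arrays, at 6.39 and 6.59, and no array with bFGF detected it. It was at least 1.10-fold higher without bFGF (limma adjusted p = 0.0132, which tests the fitted change and not the bound), and the call was lost without replicate 1 of +bFGF (adjusted p up to 0.0544) or replicate 2 of +IL-11. CDH24 is a further cadherin, with 6.88 and 6.71 (−bFGF), 6.43 and 6.35 (+IL-11), 5.91 and 5.98 (+bFGF), and 5.80 and 6.39 (+IL-11+bFGF). It too was kept only through the conditions without bFGF, neither +bFGF array detected it, and −bFGF was at least 1.35-fold above +bFGF. Its arrays with and without bFGF overlapped (-0.57, SE 0.15, limma adjusted p = 0.0213), and the call was lost in the methods' t-test, run per probe on the same values, and when any array other than replicate 2 of −bFGF or of +IL-11+bFGF was left out.

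The cadherins of the epithelial state did not pass the test. CDH1, the E-cadherin of epithelial colonies, was bright and lay between 11.56 and 12.14 on all 8 arrays, with both extremes in +IL-11. Its change with bFGF was 0.03 (95% interval -0.26 to 0.32, limma adjusted p = 0.876). CDH3, which encodes P-cadherin, lay between 9.91 and 10.59, with a change of 0.03 (-0.25 to 0.31, adjusted p = 0.879). For both genes the sign turned when single arrays were left out. CDH11, a cadherin of mesenchymal cells, gave -0.40 (-0.74 to -0.07, adjusted p = 0.0757), and CDH10 gave 0.26 (0.03 to 0.49, adjusted p = 0.0872).

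The log2 level of CDH2 minus that of CDH1 was taken within each array and compared between arrays. As the probes differ, its size is no ratio of the 2 levels, and only its change between arrays can be read. The difference averaged 1.80 over the 4 arrays without bFGF and 1.24 over the 4 with it. The arrays overlapped, at 1.43 to 2.25 without bFGF and 0.904 to 1.498 with it. An exact permutation test over the arrays gave a two-sided p = 0.0571 for the change of -0.57, where the smallest p that 4 against 4 allows is 0.0286. As the fitted change of CDH1 was small, this change is mostly the fall of CDH2 given above and no separate result.

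Among the catenins, the common members changed little. CTNNA1, the α-catenin of epithelia, lay between 12.49 and 12.80 and gave -0.07 (95% interval -0.23 to 0.09, limma adjusted p = 0.516), or 0.02 with median scaling in place of quantile normalization. CTNNB1, which encodes β-catenin, was 10.30 and 9.68 (−bFGF), 10.36 and 10.39 (+IL-11), 10.12 and 10.36 (+bFGF), and 10.33 and 10.21 (+IL-11+bFGF). Replicate 2 of −bFGF stood below all other arrays, and the change with bFGF was 0.08 (-0.20 to 0.36, adjusted p = 0.688). CTNNBL1 fell 1.18-fold (-0.23, SE 0.06, adjusted p = 0.0236) with no overlap, from 10.38 to 10.57 without bFGF to 10.14 to 10.30 with it. Its call was lost with median scaling and without any single array that had bFGF, or replicate 2 of +IL-11. CTNND2, the δ-catenin of neurons, gave -0.63 (-1.10 to -0.16, adjusted p = 0.0518), with overlapping arrays.

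The claudins are described without a test against the other families. All 11 kept probes were detected on all 8 arrays, 0 of them fell, against 13.1% of all probes, and 2 rose, against 13.3%, which for 11 probes is near the background. Their median change with bFGF was 0.04, against -0.47 for the 8 cadherin, -0.23 for the 14 protocadherin and -0.23 for the 7 catenin probes. In these other families, only 5 cadherin, 9 protocadherin and 6 catenin probes were detected on all 8 arrays. CDH15, CDH23, CDH24, CTNNA2 and PCDHB10 were kept only through conditions without bFGF, and PCDH20 and PCDHA5 only through conditions with it. The medians of these families are therefore in part set by the filter. CLDN14, known from the inner ear and the kidney, was at 8.44 and 8.61 (−bFGF), 8.57 and 8.39 (+IL-11), 8.74 and 8.63 (+bFGF), and 8.97 and 9.02 (+IL-11+bFGF). The +IL-11+bFGF arrays were the highest, and the +bFGF arrays lay just above those of −bFGF. Over the 4 arrays each the rise was 1.26-fold (0.34, SE 0.09, limma adjusted p = 0.0213), and the call was lost without replicate 1 of +bFGF, replicate 2 of +IL-11 or either +IL-11+bFGF array, and in the methods' t-test.

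CLDN7, a claudin of many epithelia, was at 10.33 and 10.12 (−bFGF), 10.40 and 9.77 (+IL-11), 10.84 and 10.53 (+bFGF), and 10.57 and 10.39 (+IL-11+bFGF). Replicate 1 of +IL-11 overlapped the arrays with bFGF, and the rise was 1.34-fold (0.43, SE 0.14, limma adjusted p = 0.044). The call was lost when any array but replicate 2 of +bFGF or replicate 1 of +IL-11 was left out, in a fit with no intensity trend, and in the methods' t-test. CLDN6, a claudin of early embryonic epithelia and of pluripotent stem cells, lay between 8.91 and 9.49 and gave 0.05 (95% interval -0.25 to 0.35, adjusted p = 0.820), with a sign that turned when single arrays were left out. The brighter probe of CLDN10, whose product forms paracellular ion channels, gave -0.11 (-0.33 to 0.12, adjusted p = 0.471), and the dimmer -0.001 (-0.30 to 0.30). CLDN18 gave 0.77 (0.12 to 1.42, adjusted p = 0.0795), with 8.15 on replicate 2 of +IL-11+bFGF and 6.33 to 7.32 on the other arrays.

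The protocadherins that rose were both dim. PCDH11X was at 6.34 and 6.40 (−bFGF), 6.41 and 5.84 (+IL-11), 7.50 and 6.79 (+bFGF), and 7.06 and 7.23 (+IL-11+bFGF), with no overlap (0.89, SE 0.18, limma adjusted p = 0.00668). A near-identical paralog may share this probe. PCDH20 was at 6.01 and 6.05 (−bFGF), 6.13 and 6.33 (+IL-11), 6.84 and 6.80 (+bFGF), and 6.36 and 6.82 (+IL-11+bFGF). Both −bFGF arrays were below detection, and +bFGF was at least 1.46-fold higher. It was kept only through +bFGF, so its rise was in part set by the filter. Over the 4 arrays each the change was 0.58 (SE 0.14, adjusted p = 0.0134), a call that was lost without replicate 1 of +IL-11. The remaining protocadherin probes did not pass, among them both probes of PCDH10 (-0.33 and -0.19) and that of PCDHB17P, a pseudogene of the beta cluster (-0.28, adjusted p = 0.0855).

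**Figure D3:**
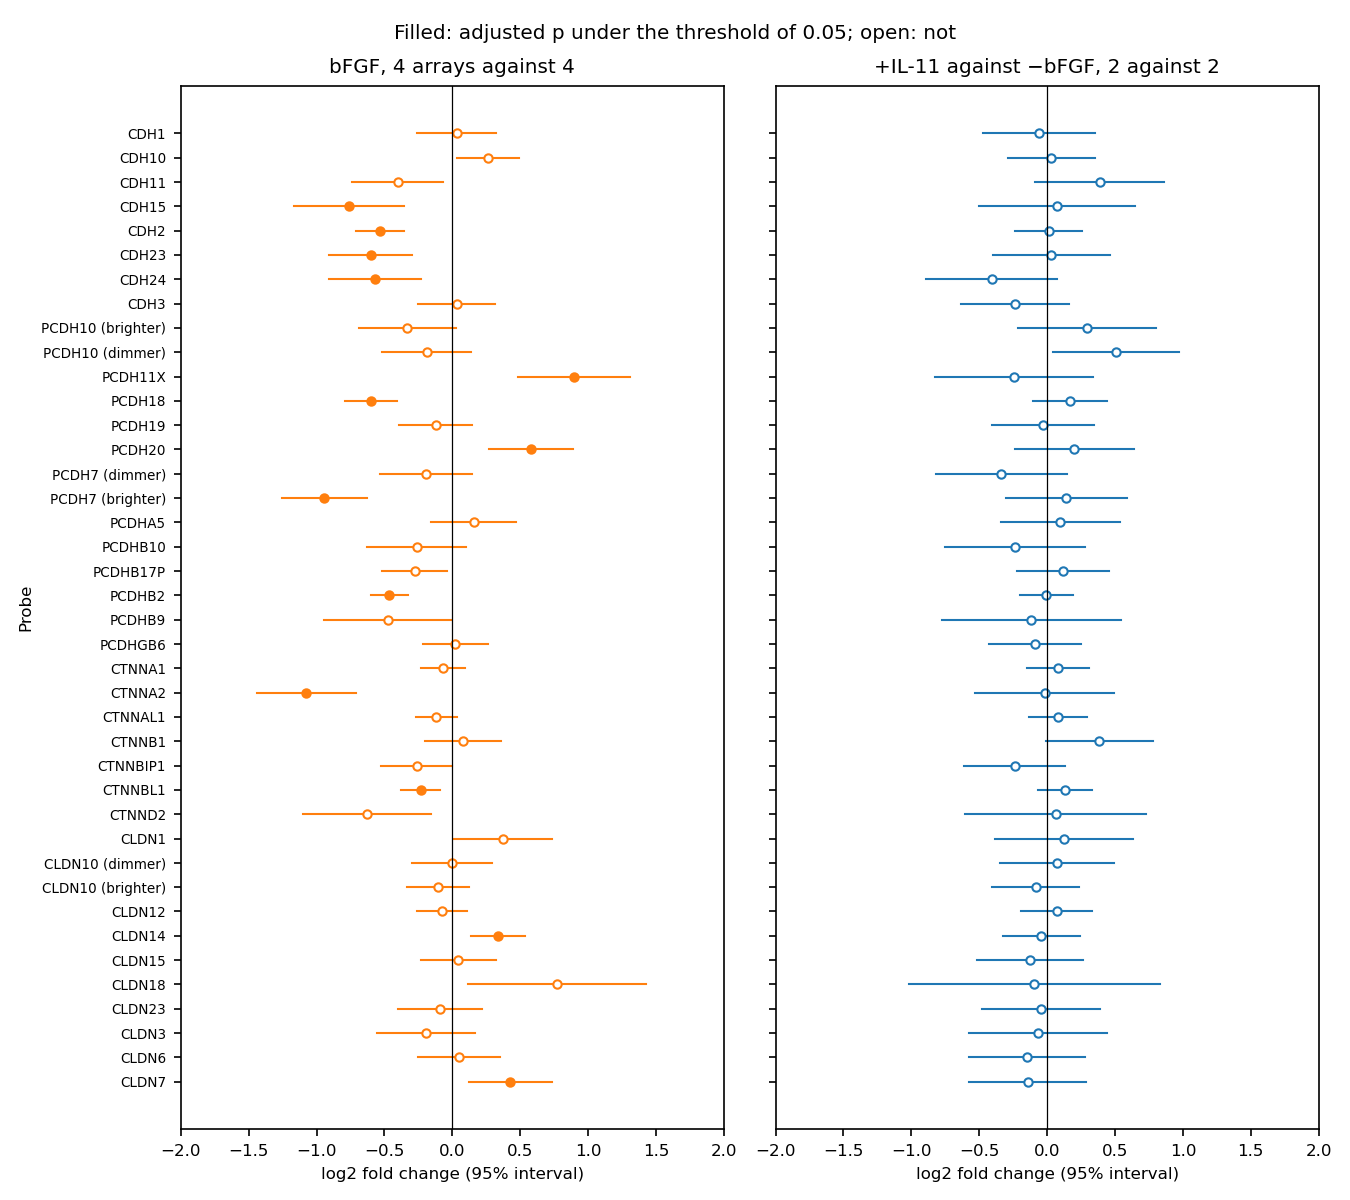
log2 fold change with its 95% interval for each of the 40 kept member probes, for bFGF (4 arrays with against 4 without, left) and for +IL-11 against −bFGF (2 against 2, right); filled points passed the adjusted p of 0.05. In the left panel 13 points are filled, 9 below and 4 above 0; in the right panel 0 are filled.

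The bFGF comparisons with and without IL-11 rest on 2 arrays against 2. The filter enters here too, as CDH24 and CTNNA2 were kept only through conditions without bFGF and PCDH20 only through +bFGF. Of the 31 members detected on all 8 arrays, 4 fell and 0 rose between +bFGF and −bFGF, against 6.45% and 7.12% of all such probes. Between +IL-11+bFGF and +IL-11, 5 of them fell and 1 rose, against 4.21% and 4.55%. Between +bFGF and −bFGF, 7 of 40 members were called (17.5%, against 14.8% of all probes): CDH2, CDH24, CTNNA2, PCDH7, PCDH18 and PCDHB2 fell (15%, against 7.2%) and PCDH20 rose (2.5%, against 7.58%). Without replicate 1 of +bFGF 2 were called, without replicate 2 of −bFGF 3, and without replicate 1 of −bFGF 4. Between +IL-11+bFGF and +IL-11, 7 members were again called, against 9.86% of all probes: CDH2, CTNNBL1, PCDH7, PCDH18 and PCDHB2 fell (12.5%, against 4.77%), and CLDN14 and PCDH11X rose (5%, against 5.08%). Here 1 was called without replicate 2 of +IL-11, 2 without replicate 1 of +IL-11+bFGF, and 3 without replicate 1 of +IL-11.

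The genes called in both of these comparisons fell in each. The falls were of like size for CDH2 and PCDHB2, and larger with IL-11 for PCDH7 (brighter probe) and PCDH18. The dimmer probe of PCDH7 gave -0.42 without IL-11 (limma adjusted p = 0.212). With IL-11 it showed no such fall, at 6.64 and 6.85 (+IL-11) against 6.51 and 7.05 (+IL-11+bFGF). For CDH2 the log2 fold change was -0.56 (SE 0.11, limma adjusted p = 0.011) without IL-11 and -0.51 (SE 0.11, adjusted p = 0.0196) with it. For PCDHB2 it was -0.45 (adjusted p = 0.00941) and -0.48 (adjusted p = 0.00856), for PCDH7 -0.80 (adjusted p = 0.0272) and -1.08 (adjusted p = 0.00921), and for PCDH18 -0.46 (adjusted p = 0.0346) and -0.74 (adjusted p = 0.00515). Each of these 8 calls was lost without at least 1 array: CDH2 without replicate 1 of +bFGF, replicate 2 of −bFGF, replicate 2 of +IL-11 or replicate 1 of +IL-11+bFGF, and PCDHB2 without the same arrays other than replicate 2 of −bFGF. PCDH7 was lost without any of those of CDH2 or replicate 1 of −bFGF, and PCDH18 without replicate 1 of −bFGF, either +bFGF array or replicate 1 of +IL-11. The signs agreed between the comparisons for 33 of 40 members (82.5%) and for 76.6% of all probes. The interaction of bFGF and IL-11, which tests whether the effect of bFGF differs with IL-11, was called for 0 of 40 members and 0% of the 11668 probes. At an unadjusted p under 0.05, it was passed by 0 members and 259 probes, and no other test was run on it. The smallest unadjusted p among the members was 0.0728, for CTNNBL1 (difference -0.26).

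**Figure D4:**
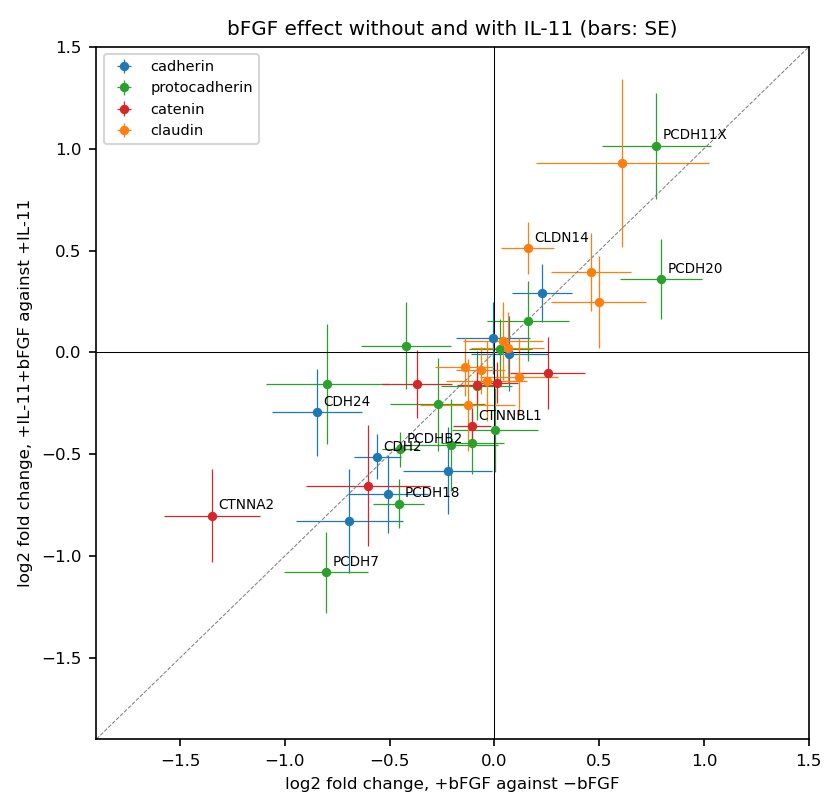
log2 fold change of each of the 40 kept member probes with bFGF in the absence (x axis) and in the presence (y axis) of IL-11, with SE bars and colours for the families; names mark probes called in either comparison and the dashed line marks equal changes. The 4 genes called in both, CDH2, PCDH18, PCDH7 (brighter probe) and PCDHB2, lie in the lower left, and 33 of the 40 probes have the same sign on both axes.

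IL-11 alone left no called change in these genes. Between +IL-11 and −bFGF 0 of 40 members passed, and 0% of all probes did. Limma gave an unadjusted p under 0.05 for 1 member and 641 probes, and the methods' t-test for 2 and 458. The member was the dimmer probe of PCDH10, a protocadherin outside the clusters, with 7.43 and 7.25 against 6.98 and 6.69 (0.51, unadjusted p = 0.0348, adjusted p = 0.792). CDH2 changed by 0.01 (95% interval -0.24 to 0.26), CDH1 by -0.06 (-0.47 to 0.35), PCDHB2 by -0.005 (-0.20 to 0.19) and PCDH18 by 0.17 (-0.10 to 0.44). CTNNB1 gave 0.39 (-0.01 to 0.78, adjusted p = 0.792), or 0.08 without replicate 2 of −bFGF, the array that stood below the others. A p that missed the threshold does not show equal levels.

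Added to bFGF, IL-11 again gave 0 calls among the members and in 0% of all probes. At an unadjusted p under 0.05, limma passed 2 members and 192 probes, and the methods' t-test 2 and 479. The members were CLDN14 (0.31, adjusted p = 1.00) and CTNNA2 (0.53, adjusted p = 1.00). CTNNA2 was below detection on both +bFGF arrays and on 1 of the 2 arrays with both factors, and the bound on its change was at least 1.01-fold.

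Set against each other, +IL-11 and +bFGF differed in 6 of 40 members (15%, against 11.5% of all probes). CTNNA2, PCDH18, PCDHB2, CDH2 and PCDH7 were higher with IL-11 (12.5%, against 5.64%) and PCDH11X was lower (2.5%, against 5.83%). CTNNA2 was kept only through the conditions without bFGF, so its difference here was in part set by the filter. Of the 31 members detected on both arrays of every condition, 4 were higher with IL-11 and 0 lower, against 5.03% and 5.43% of all such probes. CDH2 was 1.48-fold higher (limma adjusted p = 0.0112), PCDH7 1.92-fold (adjusted p = 0.0156) and CTNNA2 at least 1.76-fold (adjusted p = 0.00643). This comparison uses the +bFGF and +IL-11 arrays of the comparisons above and is no independent measure of them. Without replicate 1 of +bFGF, or without replicate 2 of +IL-11, 2 were called.

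Replicate 2 of +IL-11 was the lowest of the 8 arrays for 7 of 11 claudin probes and for 14.5% of all probes. Within +IL-11, 9 of the 11 claudin probes were lower on replicate 2 than on replicate 1, with a median difference of -0.41, against a median of -0.01 for all probes. CDH1 was 0.58 and CDH3 0.50 lower on replicate 2 of +IL-11, while CDH2 was 0.25 higher. The kept fibroblast-like markers other than THY1 were also higher on this array than on replicate 1 of +IL-11. COL3A1, a collagen chain, read 12.65 against 12.02, and DCN, which encodes decorin, 12.27 against 11.14 on 1 kept probe and 8.81 against 7.60 on the other. The summed intensity of the 6 kept fibroblast-like markers was 25358 and 32186 on the +IL-11 arrays, the higher on replicate 2. Claudin levels on the other 3 pairs of arrays differed by a median of -0.002 (−bFGF), -0.11 (+bFGF) and -0.23 (+IL-11+bFGF). The part of the fibroblast-like markers in these differences was not tested.

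Genes of other parts of the cell junction were listed by role and read against the 13.1% of all probes that fell with bFGF and the 13.3% that rose. Of 7 tested genes of the desmosome, the junction that anchors keratin filaments, 3 fell and 0 rose: DSC2, a desmosomal cadherin (-0.74, limma adjusted p = 0.000322), JUP, the plakoglobin shared by desmosomes and adherens junctions (-0.49, adjusted p = 0.00347), and PKP2, a plaque protein (-0.56, adjusted p = 0.00428). The median over the list was -0.20. Of 11 genes of tight junction scaffolds and other membrane proteins, CGN, which encodes cingulin (-0.35), and PALS1 (-0.42), a polarity protein, fell, and PARD6A (0.43), another polarity protein, rose, counts near the background, with a median of -0.13. Of 8 nectins, actin linkers and related genes, 6 were detected on all 8 arrays, and of these 0 fell and 1 rose, VCL, which encodes vinculin (0.41, adjusted p = 0.00171). EPCAM, an epithelial adhesion molecule, and NECTIN1, an adhesion molecule that works beside cadherins, were called higher too (adjusted p = 0.000772 and 0.00724). Both were kept only through the conditions with bFGF, with detection on 1 of the 2 −bFGF arrays and on neither +IL-11 array. Their rise was therefore in part set by the filter. Against +IL-11, +IL-11+bFGF was at least 1.60-fold higher for EPCAM and at least 1.27-fold for NECTIN1. The median over the 8 genes was 0.10. All medians stand beside the median of 0.00 over all probes.

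Of the transcription factors known to act on epithelial genes, 5 were tested. SNAI2 (-0.97, limma adjusted p = 0.000137) and ZEB2 (-1.18, adjusted p = 0.000817), repressors of E-cadherin, fell with bFGF, as did OVOL2 (-0.52, adjusted p = 0.0252), known for keeping epithelial expression. GRHL3, an epithelial factor of the grainyhead family, was called lower (adjusted p = 0.00365). It was kept only through the conditions without bFGF, with detection on neither +bFGF array and on 1 of the 2 +IL-11+bFGF arrays, and −bFGF was at least 1.68-fold above +bFGF. TWIST1, a factor of mesenchyme, rose (0.37, adjusted p = 0.0287).

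Markers of other cell types were tested in the same arrays, against the same 13.1% of all probes that fell and 13.3% that rose. Some were kept only through the conditions without bFGF, so that their falls were in part set by the filter. These were FOXD3 and POU4F1 of the neural crest list, NEUROG2 and PAX6 of the neuroectoderm list, and GATA3 and KRT7 of the trophectoderm list. Of 6 neural crest and sensory neuron markers 5 fell and 1 rose, or 3 and 1 of the 4 detected on all 8 arrays, and their summed linear intensity was 4212 to 5004 (−bFGF) and 4945 to 4974 (+IL-11), against 1742 to 1861 (+bFGF) and 1890 to 2089 (+IL-11+bFGF). All 4 tested neuroectoderm markers fell, of which 2, DACH1 and MAP2, were detected on all 8 arrays, with sums of 1474 to 1586 and 1543 to 1654 without bFGF, against 424 to 621 and 400.0 to 819.7 with it. Of 5 trophectoderm markers 4 fell, of which 2, HAND1 and TFAP2C, were detected on all 8 arrays, with sums of 4280.5 to 8061 and 5805 to 6770.3 without bFGF, against 1266 to 1820.2 and 1336 to 2275 with it. Of 6 fibroblast-like markers 4 fell and 1, THY1, rose, and THY1 is part of their sums. These sums were nearer each other, at 25055 to 26098 and 25358 to 32186 without bFGF, against 19591 to 22728 and 19273 to 24249.6 with it. Of 5 endoderm markers 1 fell, and the sums of 4164 to 9634 and 4951 to 6592 without bFGF overlapped those of 2271 to 3851 and 1378 to 6389.7 with it. Of 9 markers of undifferentiated cells 5 rose and 2 fell, with sums of 34994 to 36785 and 35570.1 to 36347 without bFGF, against 44626 to 45069 and 41889 to 47240 with it. PAX3 and NGFR of the neural crest list, SOX1, LHX2, OTX1 and NEUROG1 of the neuroectoderm list, LUM and POSTN of the fibroblast-like list, CGA and CGB3 of the trophectoderm list and GATA4 and GATA6 of the endoderm list were not kept. SNAI2 and TWIST1 stand both in this neural crest list and among the factors above. The part of these cells in the falls of CDH2, CTNNA2 and the protocadherins was not tested, and fewer cells of a type and less RNA per cell cannot be told apart in bulk samples.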

How the data were processed

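Expression was measured on 8 arrays, 2 for each of 4 conditions, grouped by the titles in the labels. The first table that the authors deposited gives each probe's intensity as read, on a linear scale, and a detection p-value. A second deposited table holds intensities after background subtraction and rank invariant normalization, for which the study's methods name BeadStudio and the submitters' processing notes GenomeStudio. Its version is not given in the sources used here. The non-normalized intensities were corrected in R 4.3.3 with limma 3.58.1 by normexp (neqc, offset 16, negative controls inferred from the detection p-values), then quantile normalized and log2 transformed, so that global shifts between arrays are removed. The detection filter of 0.01 had to be met by both arrays of 1 condition or more. The fit, with 1 mean for each condition and an intensity trend (4 residual degrees of freedom, prior 5.59) gave 7 comparisons, each adjusted by Benjamini-Hochberg at 0.05. The median SE of +bFGF against −bFGF was 0.14.

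Of the probes, 21834 have 1 symbol, 0 several and 2692 none, and a current gene identifier was found for 21822. Named members are those called in any comparison, CDH1, CDH2, CDH3, CTNNA1, CTNNB1, CTNND1, CLDN6 and CLDN10, members whose probes disagree and up to 4 genes per junction list with the smallest p with bFGF. A few others without a call (CDH10, CDH11, CTNND2, CLDN18, PCDH10 and PCDHB17P) were chosen after their values were seen. The members and lists were chosen with earlier results of these data known. Each gene in a list was represented by its brightest kept probe. Bounds set the detected condition's mean against, per array, the higher of the lowest detected signal and the probe's own. The detection limit of each array, its lowest detected signal, was 6.12 to 6.45 on the log2 scale. The fit was tested on data simulated from its own model, which cannot show whether the arrays meet that model. Promoters are RefSeq sequences on GRCh38.p14, matched by symbol for 28 of 37 kept genes. Alternatives were other background, normalization, detection filters, probe choices, tests and samples in the fit, a replicate block, and leaving out each array.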

Additional observations from a re-analysis of the deposited data

Results flagged for a closer look

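Among 80 groups of 4 arrays (40 probes, with and without bFGF), 10 held 1 array that stood far from the other 3, where chance gives about 1 in 20. In the groups without bFGF, the low arrays were CTNNB1 at 9.68 on replicate 2 of −bFGF (next 10.30), PCDH11X at 5.84 (next 6.34) and PCDHB10 at 5.98 (next 6.45), both on replicate 2 of +IL-11. High arrays were CDH10 at 7.81 (next 7.75) and CLDN12 at 10.2 (next 10.1), both on replicate 1 of +IL-11. In the groups with bFGF, CDH23 at 6.36 (next 6.06) and CLDN23 at 8.90 (next 8.55) were high on replicate 1 of +bFGF. PCDHB9 was low at 5.51 on replicate 2 of +bFGF (next 6.48). PCDH20 at 6.36 on replicate 1 (next 6.80) and CLDN6 at 9.08 on replicate 2 (next 9.36) were low in +IL-11+bFGF. The cause was not tested.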

How the results depend on the processing

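The precision is limited by 2 arrays per condition and by dim members near the detection limit. CDH2, PCDH18, PCDH7 (brighter probe) and PCDHB2 were called with bFGF in all 18 alternatives. A new fit on only the probes detected on all 8 arrays called 4 members between +bFGF and −bFGF and 8 with bFGF over 4 arrays each, where the fit over all kept probes called 7 of the same 31. The methods' t-test, after adjustment, called 0 between +bFGF and −bFGF (8 unadjusted), 0 between +IL-11+bFGF and +IL-11 (4 unadjusted) and 0 between +IL-11 and +bFGF (6 unadjusted), and 11 with bFGF over 4 arrays each. When each array was left out in turn, the calls ranged from 2 to 8, 1 to 7, 2 to 6 and 8 to 12 in these comparisons, in the same order. With a replicate block, 8, 9, 7 and 14 were called, and 0 for both effects of IL-11 and for the interaction. The difference of replicate 2 minus replicate 1, over the kept probes, correlated at -0.06 to 0.18 between conditions. Nothing says that a number marks a shared culture.

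Among single genes, CTNNA1 turned to 0.0158 with bFGF under median scaling. Leaving out 1 array gave ranges across 0 for the bFGF changes of CDH1 (-0.11 to 0.18), CDH3 (-0.0937 to 0.16), CLDN6 (-0.0903 to 0.19) and CTNNB1 (-0.0784 to 0.23), and between +IL-11 and −bFGF for CDH1 (-0.35 to 0.23) and CDH2 (-0.11 to 0.14). Over all values of single members under the alternatives, 565 kept direction and side of the threshold, 94 kept direction but lost the call and 15 turned sign. The slide as a block was not run, as no file or label used here gives it. The fit on only the arrays compared is the same fit for the 4 against 4 comparison and the interaction and was not run there, and the methods' t-test was not run on the interaction.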
